A study of Mus musculus with 6 samples.

Results

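The Bcl2 family genes described here are 10 genes of the mitochondrial route to apoptosis, chosen by symbol from the 53927 gene symbols in each deposited table. They are the BH3-only genes Pmaip1, Bbc3, Bcl2l11, Bmf and Bid, the effector genes Bax and Bak1, and the anti-apoptotic guardian genes Mcl1, Bcl2 and Bcl2l1. All 10 members were present in the tables and all 10 passed the filter on low counts. RNA-seq was done on 6 libraries of mouse embryonic stem cells (ESCs), 3 from BRD0705/PD03 cultures and 3 from 2i cultures. The BRD0705/PD03 medium was N2B27 with 8 µM BRD0705, an inhibitor selective for the kinase GSK3 alpha, and 1 µM PD0325901, an inhibitor of the kinase MEK. The 2i medium was N2B27 with 3 µM CHIR-99021, which inhibits both GSK3 alpha and GSK3 beta, and 1 µM PD0325901, so the MEK inhibitor was shared by both groups. The genotype is labelled WT in both groups. The cell line is labelled E14, whereas the growth protocol describes B6D2F1 ESCs derived and grown on feeders in each medium, so the labels leave the origin of the cells unsettled. The number of independent lines, and whether the libraries came from separate cultures, are not stated in the labels, so the p-values speak only for the variation among these 6 libraries, part or all of which could be technical.

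Proteins of the Bcl2 family decide whether the outer mitochondrial membrane is opened during apoptosis. BH3-only proteins sense stress and either bind the guardians or activate the effectors, and the effectors BAX and BAK form the pores that release cytochrome c. Guardians such as MCL1, BCL-2 and BCL-XL hold both other classes in check. Pluripotent cells are known to be primed for apoptosis. GSK3 and ERK act on the pathway largely through the proteins: GSK3 phosphorylates MCL1 and ERK phosphorylates BIM, and both marks are known to promote breakdown of the protein. The data here are RNA levels per gene, so neither protein levels, phosphorylation nor the splice forms of Bcl2l11, Bcl2l1 and Mcl1 were measured.

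Library totals ranged from 27825601 to 40790837 counts in BRD0705/PD03 and from 16968959 to 51180228 counts in 2i. ESC markers were abundant in every library, with a summed level of 2160 to 2245 CPM over Pou5f1, Sox2, Nanog, Esrrb, Zfp42 and Sall4 in BRD0705/PD03 and 2448 to 2571 CPM in 2i. Markers of fibroblasts, the usual feeder cells, were also present. Of 15 such markers 14 were called higher in BRD0705/PD03 and 0 lower, where 30.1% of all genes tested were called higher and 31.4% lower. The summed level of the 15 markers was 1726 to 2329 CPM in BRD0705/PD03 and 1394 to 1430 CPM in 2i. No marker was at 0 in any library. Fn1, the most abundant of them, did not pass the test (798 ± 55.8 CPM in BRD0705/PD03 and 809.7 ± 15.9 CPM in 2i, SD, n = 3 each), and the median log2 fold change of the 15 was 0.93. Markers of endoderm summed to 3.70 to 4.54 CPM in BRD0705/PD03 and 3.09 to 3.51 CPM in 2i, with Afp near 0 in both, and markers of trophoblast to 43.3 to 46.1 CPM in BRD0705/PD03 and 39.7 to 44.7 CPM in 2i, nearly all of it Tfap2c, with Hand1 at or near 0. Of 4 endoderm markers tested 2 were called higher and 1 lower, and of 4 trophoblast markers 1 was called higher and 1 lower, beside the same shares of all genes. Among the low ones, Foxa2 stood at 0.475 ± 0.109 CPM in BRD0705/PD03 and 0.106 ± 0.114 CPM in 2i, Dab2 at 2.32 ± 0.382 CPM in BRD0705/PD03 and 1.16 ± 0.170 CPM in 2i, and Gata3 at 0.390 ± 0.202 CPM in BRD0705/PD03 and 3.29 ± 0.394 CPM in 2i (SD, n = 3 each). CPM are counts scaled to a common library total with TMM factors. In such mixed bulk samples, a change in the share of one kind of cell and a change in RNA per cell cannot be told apart, and the part of these marker differences in the values below was not tested.

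Promoter sequence, credited to RefSeq on GRCm38.p6, was available for 9 of the 10 members, all but Pmaip1, in 16 windows of 250 bases before an annotated start. Only 11 of the windows held no exon bases of their own gene. The windows ranged from 47.6% to 81.6% GC, and 8 of the 16 lay above 61.2%, the upper quartile of all 32851 promoter windows. These windows are not independent. Every window of Bbc3 and of Bcl2l11 was among the 8, and some of those of Bbc3 share bases. The windows were searched on both strands for 5 exact motifs, namely CTTTGA for TCF/LEF, TGTTTAC for FOXO, TGAGTCA for AP-1, CACGTG for the E-box and TTCGCGC for E2F. The FOXO letters were found in 2 windows, one of Bcl2l11 and one of Bbc3, and in 3.17% of all windows. The E-box letters were found in 2 windows and in 6.02% of all windows. The TCF/LEF letters were found in 1 window, that of Bax, and in 13.8% of all windows, the E2F letters in 1 window of Bcl2l1 and in 1.28% of all windows, and the AP-1 letters in 0 windows and in 4.46% of all windows. The Bcl2l1 window with the E2F letters lay wholly within exons of that gene. None of these motifs overlapped another in the windows shown. The sequences below are those of 3 members that were higher in BRD0705/PD03 and whose windows hold FOXO, TCF/LEF or E-box letters, shown 5′ to 3′ on the strand of the gene with the motif in capitals. The Bcl2l11 window is chr2:128125788-128126037 on the plus strand, with the FOXO letters starting at -227 from the annotated start. The Bbc3 window is chr7:16310011-16310260 on the plus strand, ahead of an internal start of the gene, with the FOXO letters at -167. The Bax window is chr7:45466899-45467148 on the minus strand, with the TCF/LEF letters at -194 and the E-box letters at -9.
Bcl2l11: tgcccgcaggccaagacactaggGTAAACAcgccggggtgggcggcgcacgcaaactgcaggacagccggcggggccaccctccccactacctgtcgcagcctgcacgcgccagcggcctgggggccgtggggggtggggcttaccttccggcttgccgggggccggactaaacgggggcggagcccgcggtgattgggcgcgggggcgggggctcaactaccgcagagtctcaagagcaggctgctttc
Bbc3: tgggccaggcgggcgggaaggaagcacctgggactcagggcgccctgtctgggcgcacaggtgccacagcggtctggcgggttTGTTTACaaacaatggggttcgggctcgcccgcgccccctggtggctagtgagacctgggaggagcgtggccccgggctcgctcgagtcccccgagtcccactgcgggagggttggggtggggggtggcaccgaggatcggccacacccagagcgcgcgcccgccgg
Bax: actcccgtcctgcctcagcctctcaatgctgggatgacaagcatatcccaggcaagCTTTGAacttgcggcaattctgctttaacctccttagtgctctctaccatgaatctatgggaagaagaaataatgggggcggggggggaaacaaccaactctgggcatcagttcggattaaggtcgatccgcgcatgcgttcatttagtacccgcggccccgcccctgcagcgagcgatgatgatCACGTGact
These letters are a description of the windows and do not show that a factor was bound.

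In BRD0705/PD03 libraries, RNA of the BH3-only genes Pmaip1, Bcl2l11 and Bbc3, of the effector gene Bax and of the guardian genes Mcl1 and Bcl2 was higher than in 2i libraries, whereas RNA of the BH3-only gene Bmf and the effector gene Bak1 was lower. Pmaip1 stood 4.93-fold higher, Bcl2 3.50-fold and Bcl2l11 2.07-fold, while Bax and Mcl1 stood 1.22-fold and 1.19-fold higher. Bid and Bcl2l1 did not pass the test. Of the 10 members, 6 were called higher and 2 lower by edgeR's quasi-likelihood test at an adjusted p under 0.05, where 61.4% of all 20422 genes tested were called, 30.1% as higher and 31.4% as lower. The groups did not overlap for 8 members, against 66.0% of all genes, with 6 members higher, against 32.4%, and 2 lower, against 33.6%. By 2-fold or more, 3 members were higher, against 10.9% of all genes, and 0 were lower, against 10.3%. The median log2 fold change was 0.27 over the members and 0.00 over all genes, and the median absolute log2 fold change was 0.59 over the members and 0.40 over all genes.

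**Figure D1:**
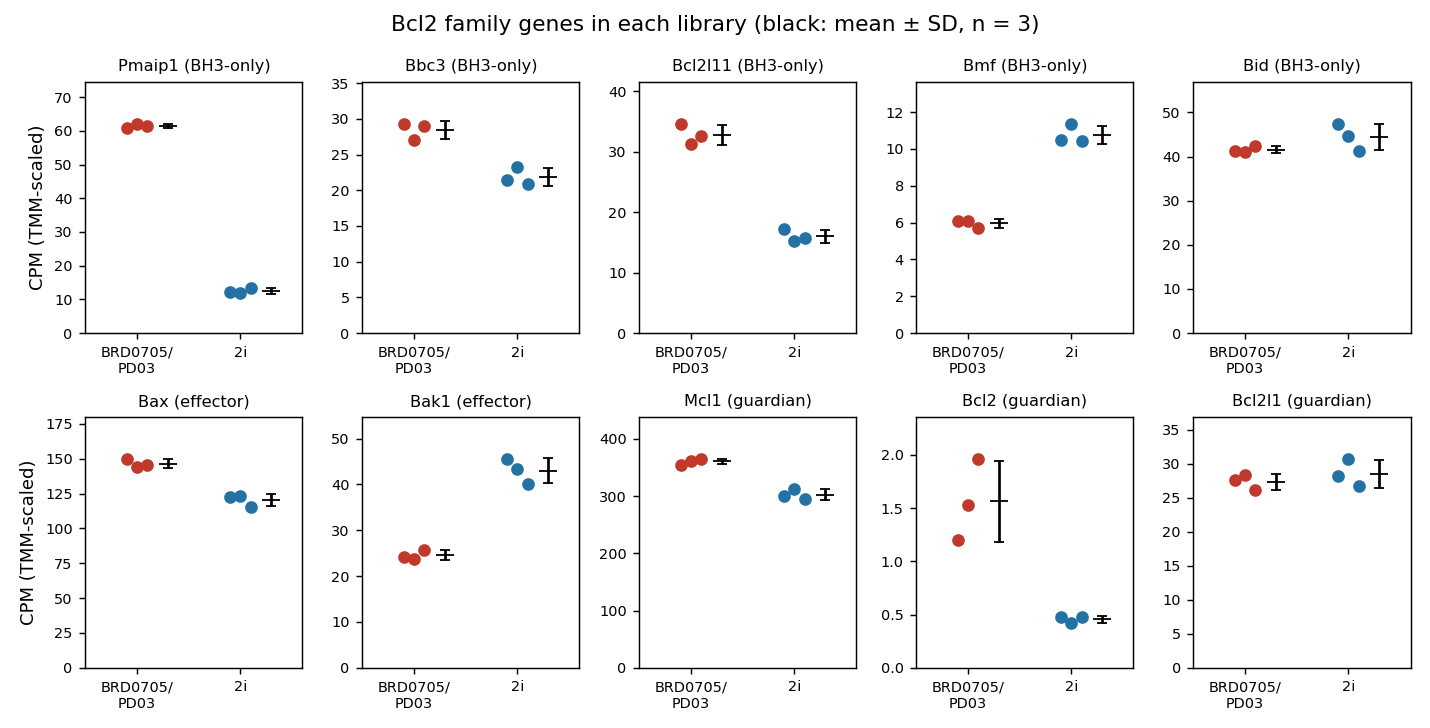
Level of each Bcl2 family gene in CPM (y axis, from 0) in the 3 BRD0705/PD03 libraries (red) and the 3 2i libraries (blue), with the mean ± SD in black. The groups are apart in 8 panels and overlap in those of Bid and Bcl2l1.

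Among the BH3-only genes, Pmaip1 differed most. Pmaip1 encodes NOXA, a sensor that binds mainly MCL1, and lies on chromosome 18 (66458533 to 66465565, GRCm38). Its level was 60.9, 62.0 and 61.4 CPM in the BRD0705/PD03 libraries, against 12.0, 12.0 and 13.3 CPM in the 2i libraries. The libraries within each group lay close together and the groups were far apart. The log2 fold change was 2.30 ± 0.06 (SE, adjusted p = 1.03e-16 by edgeR), and 6.42% of all genes tested had a larger absolute change.

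Bcl2l11 encodes BIM, which binds all guardians and can activate BAX directly (chromosome 2, 128126038 to 128162547). It stood at 34.6, 31.2 and 32.6 CPM in BRD0705/PD03, against 17.2, 15.2 and 15.7 CPM in 2i. All BRD0705/PD03 libraries were above all 2i libraries, with a log2 fold change of 1.05 ± 0.07 (adjusted p = 7.75e-11). Bbc3 encodes PUMA, a p53 target that binds all guardians (chromosome 7, 16308393 to 16318205). It stood at 29.3, 27.1 and 29.0 CPM in BRD0705/PD03, against 21.4, 23.3 and 20.9 CPM in 2i. The groups were apart by a small margin, and the log2 fold change of 0.37 ± 0.06 (adjusted p = 4.25e-05) was smaller in size than that of 52.5% of all genes.

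Bmf went the other way. Its protein is a BH3-only sensor that, like BIM, binds dynein light chains at the cytoskeleton (chromosome 2, 118528757 to 118549687). It stood at 6.10, 6.07 and 5.69 CPM in BRD0705/PD03, against 10.5, 11.4 and 10.5 CPM in 2i. Every BRD0705/PD03 library lay below every 2i library, at 0.549 times the 2i level (log2 fold change -0.86 ± 0.09, adjusted p = 1.58e-07). None of the 5 motifs was found in the 3 promoter windows of Bmf. The same held for the windows of Bid, Bak1, Mcl1 and Bcl2, of which Mcl1 and Bcl2 were called higher.

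Bid encodes the sensor that caspase 8 cuts, linking death receptors to mitochondria (chromosome 6, 120891930 to 120916853). It stood at 41.3, 41.0 and 42.4 CPM in BRD0705/PD03, against 47.4, 44.7 and 41.4 CPM in 2i. The groups overlapped through the 2i library of replicate 3, and the gene did not pass the test (log2 fold change -0.09 ± 0.05, 95% interval -0.21 to 0.02, adjusted p = 0.14). Without that library the adjusted p was 0.0251 and the log2 fold change -0.13. Bid shares 628 of its 3550 exon bases with Bcl2l13 on the opposite strand, and whether counting used strand is not stated in the labels, so reads of the pair cannot be told apart with certainty. Bcl2l13 stood at 43.9 ± 0.398 CPM in BRD0705/PD03 and 40.9 ± 2.12 CPM in 2i (SD, n = 3 each).

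The effector genes moved in opposite directions. Bax stood at 149.9, 144.0 and 145.3 CPM in BRD0705/PD03, against 122, 123 and 115 CPM in 2i (chromosome 7, 45461697 to 45466898). The groups did not overlap and the log2 fold change was 0.28 ± 0.04 (adjusted p = 8.04e-06). Bak1, which encodes BAK, the effector that sits in the mitochondrial membrane also in healthy cells (chromosome 17, 27019810 to 27029009), stood at 24.2, 23.6 and 25.7 CPM in BRD0705/PD03, against 45.6, 43.3 and 40.1 CPM in 2i. Every BRD0705/PD03 library was below every 2i library, at 0.572 times the 2i level (log2 fold change -0.80 ± 0.06, adjusted p = 8.52e-10). Bax shares 192 of its 1576 exon bases with Gm45808 on the same strand. Gm45808 had 36 counts in BRD0705/PD03 replicate 3 and 0 in every other library. Bak1 shares 177 and 437 of its 2407 exon bases with separate annotated entries of Ggnbp1 on the opposite strand. As for Bid, reads of Bak1 and Ggnbp1 cannot be told apart with certainty. Ggnbp1 stood at 7.15 ± 0.632 CPM in BRD0705/PD03 and 8.28 ± 1.5 CPM in 2i (SD, n = 3 each), and did not pass the test (adjusted p = 0.243).

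Of the guardians, Mcl1 encodes a short-lived protein that early embryos need (chromosome 3, 95658788 to 95663176). It stood at 355, 361 and 365 CPM in BRD0705/PD03, against 299.8, 313 and 294 CPM in 2i. The groups did not overlap, with a log2 fold change of 0.25 ± 0.04 (adjusted p = 1.80e-05), smaller in size than that of 64.6% of all genes. Bcl2l1 encodes BCL-XL (chromosome 2, 152780668 to 152831728) and stood at 27.7, 28.4 and 26.1 CPM in BRD0705/PD03, against 28.2, 30.7 and 26.7 CPM in 2i. The libraries of the groups overlapped, and the gene did not pass the test (log2 fold change -0.07 ± 0.06, 95% interval -0.20 to 0.06, adjusted p = 0.37).

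Bcl2, the founding member of the family (chromosome 1, 106538178 to 106714274), had few counts. There were 39, 42 and 80 counts in the BRD0705/PD03 libraries, against 8, 21 and 12 counts in the 2i libraries, and its level was 1.2, 1.53 and 1.96 CPM in BRD0705/PD03, against 0.475, 0.419 and 0.474 CPM in 2i. The groups did not overlap, and the log2 fold change of 1.81 ± 0.27 (adjusted p = 1.29e-05) had the widest error of the family, with a 95% interval of 1.23 to 2.38. The BRD0705/PD03 libraries differed among themselves, and their order in Bcl2 was also their order in summed fibroblast markers, at 1726, 2107 and 2329 CPM. Mcl1 had the same order in these libraries. In 2i the order was not shared, with summed fibroblast markers at 1399, 1430 and 1394 CPM and the lowest Bcl2 level in replicate 2. The part of the fibroblast difference in the Bcl2 value was not tested. Bcl2 shares 558 of its 9157 exon bases with D630008O14Rik on the opposite strand, a gene with 0 or 1 counts in each library.

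**Figure D2:**
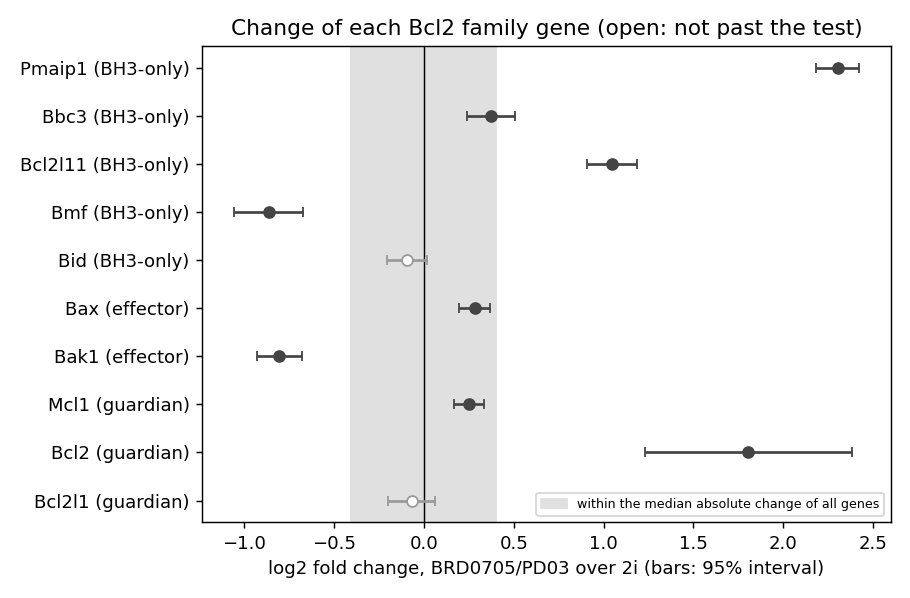
Log2 fold change of BRD0705/PD03 over 2i (x axis) for each Bcl2 family gene, with its 95% interval, open circles marking genes that did not pass the test and grey the band within the median absolute change of all genes. Pmaip1 lies farthest to the right, at 2.30, and Bmf farthest to the left, at -0.86; Bbc3, Bax, Mcl1, Bid and Bcl2l1 lie inside the band.

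Levels were set beside each other between genes only per length, as CPM per kilobase of merged exons in GENCODE M21. Mcl1 and Bax led in both groups, at 105 ± 1.49 and 92.9 ± 1.98 CPM per kilobase in BRD0705/PD03, and at 88.5 ± 2.86 and 76.4 ± 2.75 in 2i (SD, n = 3 each). In BRD0705/PD03 they were followed by Pmaip1 at 22.5 ± 0.204, Bbc3 at 13.4 ± 0.570, Bid at 11.7 ± 0.208 and Bak1 at 10.2 ± 0.447 CPM per kilobase, then by Bcl2l1, Bcl2l11, Bmf and Bcl2. In 2i the order after Bax was Bak1 at 17.9 ± 1.15, Bid at 12.5 ± 0.847, Bbc3 at 10.3 ± 0.604, Bcl2l1 at 6.23 ± 0.447 and Pmaip1 at 4.57 ± 0.275 CPM per kilobase, then Bmf, Bcl2l11 and Bcl2. Pmaip1 was thus rank 3 of the family in BRD0705/PD03 and rank 7 in 2i, and Bak1 was rank 6 in BRD0705/PD03 and rank 3 in 2i. The libraries of neighbours in these orders did not overlap, except for Bmf and Bcl2l11 in 2i, which stood at 2.05 ± 0.0957 and 1.99 ± 0.128 CPM per kilobase. The order depends on the length used. With the longest protein-coding transcript in place of merged exons, Bax stood above Mcl1 in both groups. The levels were 133 against 105 CPM per kilobase in BRD0705/PD03 and 109 against 88.5 in 2i. Bak1 was then rank 7 in BRD0705/PD03 and rank 4 in 2i, while Pmaip1 kept ranks 3 and 7. Bid stood above Bbc3 also in BRD0705/PD03 (19.0 against 15.7), and Bcl2l11 above Bmf also in 2i (3.18 against 2.32).

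**Figure D3:**
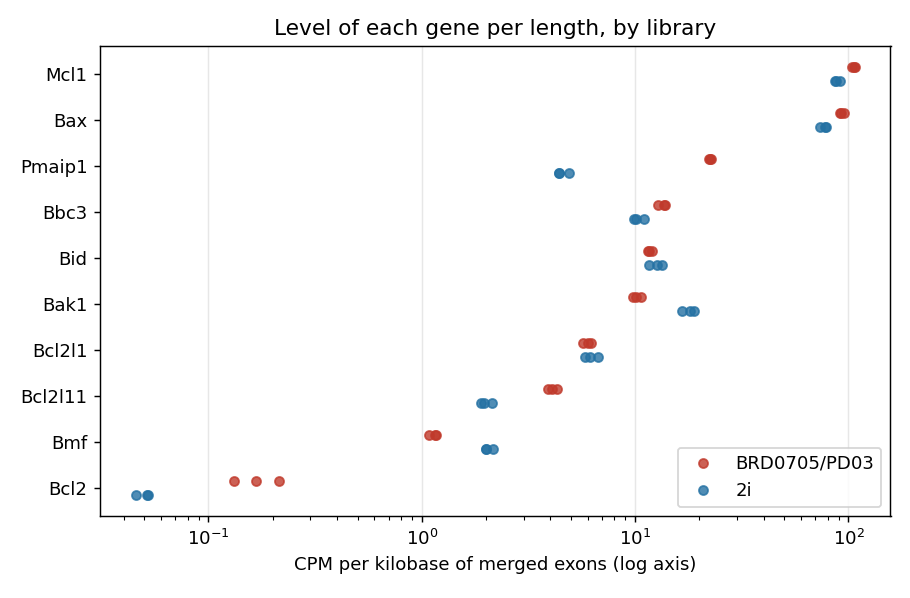
Level of each gene per length (x axis, CPM per kilobase of merged exons, log axis) in each BRD0705/PD03 library (red, upper row of a gene) and each 2i library (blue, lower row). Pmaip1 sits near 22.5 in BRD0705/PD03 and near 4.57 in 2i, while the 2 colours of Bid and Bcl2l1 overlap.

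Summed over the BH3-only members, the per-length level was 53.2, 52.0 and 53.2 CPM per kilobase in BRD0705/PD03, against 32.0, 32.0 and 30.3 in 2i. The BRD0705/PD03 sum was 1.68 times the 2i sum, given as a description with no test. This sum covers the chosen members only. Of the BH3-only relatives outside it, Hrk and Bad were called lower in BRD0705/PD03 (log2 fold changes -0.55 ± 0.11 and -0.37 ± 0.12). Bik did not pass the test (0.06 ± 0.31). Pmaip1 made up 42.6 ± 0.909% of this sum in BRD0705/PD03 and 14.5 ± 1.35% in 2i, and Bid 22.2 ± 0.285% in BRD0705/PD03 and 39.8 ± 1.70% in 2i (SD, n = 3 each). Thus the BH3-only member with the most RNA per length was Pmaip1 in BRD0705/PD03 and Bid in 2i. Bcl2l11 made up 7.74 ± 0.323% in BRD0705/PD03 and 6.34 ± 0.404% in 2i.

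The effector sum was 103 ± 2.01 CPM per kilobase in BRD0705/PD03 and 94.2 ± 3.79 in 2i. The guardian sum, nearly all of it Mcl1, was 112 ± 1.41 in BRD0705/PD03 and 94.7 ± 3.30 in 2i (SD, n = 3 each). The effector relative Bok, outside these sums, was called lower in BRD0705/PD03 (log2 fold change -0.31 ± 0.10). With the longest protein-coding transcript the effector sum exceeded the guardian sum, at 143 against 116 CPM per kilobase in BRD0705/PD03 and at 127 against 99.6 in 2i. Ratios of 2 genes within a library do not depend on the scaling between libraries. The ratio of Bax to Bak1 per length was 9.46, 9.30 and 8.63 in BRD0705/PD03, against 4.10, 4.34 and 4.40 in 2i. The ratio of Pmaip1 to Mcl1, sensor and main partner, was 0.215, 0.215 and 0.210 in BRD0705/PD03, against 0.0503, 0.0481 and 0.0567 in 2i. The ratio of Bcl2l11 to Bmf was 3.71, 3.37 and 3.75 in BRD0705/PD03, against 1.07, 0.874 and 0.983 in 2i. The ratio of Bcl2l11 to Mcl1 was 0.0388 ± 0.00241 in BRD0705/PD03 and 0.0226 ± 0.00188 in 2i, and that of the BH3-only to the guardian sum 0.473 ± 0.00958 in BRD0705/PD03 and 0.332 ± 0.00761 in 2i (SD, n = 3 each). In these 5 ratios all BRD0705/PD03 libraries lay above all 2i libraries. In the other 2 ratios computed they lay below. The ratio of Bcl2l1 to Mcl1 was 0.0581, 0.0586 and 0.0533 in BRD0705/PD03, against 0.0702, 0.0732 and 0.0676 in 2i, and that of the effector to the guardian sum was 0.956, 0.903 and 0.913 in BRD0705/PD03, against 1.03, 0.979 and 0.978 in 2i. Several of these ratios pair a gene that was called higher with one that was called lower or changed little, so they are no independent results.

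**Figure D4:**
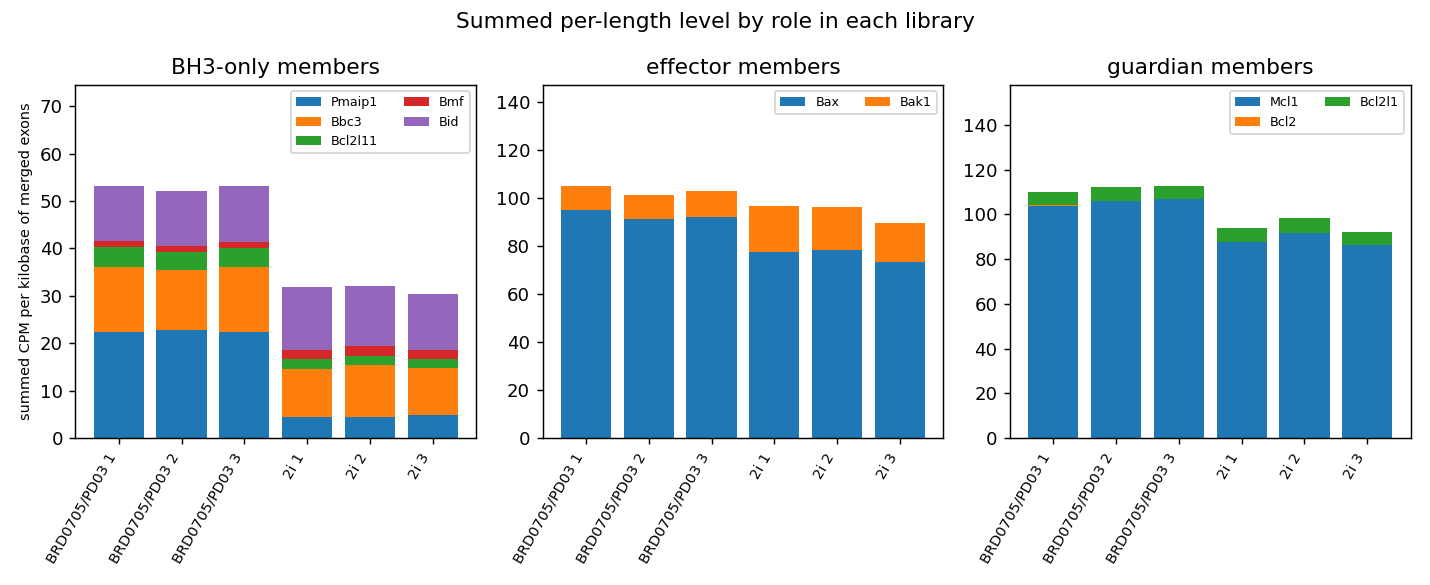
Summed per-length level (y axis, CPM per kilobase of merged exons, from 0) of the BH3-only, effector and guardian members in each library, stacked by gene, with BRD0705/PD03 libraries left of 2i libraries. The BH3-only bars reach 52.0 to 53.2 in BRD0705/PD03 and 30.3 to 32.0 in 2i, and most of the gap is the Pmaip1 segment.

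Of 15 family relatives outside the 10 members, 12 were tested, 1 was called higher and 7 lower, where 30.1% of all genes were called higher and 31.4% lower. Their median log2 fold change was -0.26, beside 0.00 over all genes. Bnip3, a mitophagy receptor and known target of hypoxia signalling, rose to 77.3 ± 3.31 CPM in BRD0705/PD03, against 31.7 ± 1.04 CPM in 2i (log2 fold change 1.29 ± 0.05). Bcl2l2, which encodes the guardian BCL-W, fell to 6.96 ± 0.795 CPM in BRD0705/PD03, against 18.6 ± 0.256 CPM in 2i (-1.42 ± 0.09). The relatives Bcl2l14 and Bcl2l15 fell to 1.67 ± 0.288 and 0.161 ± 0.0485 CPM in BRD0705/PD03, against 5.91 ± 0.767 and 2.32 ± 0.902 CPM in 2i. The number called lower was 4 without the 2i library of replicate 1, 4 by DESeq2 and 3 against a fold of 1.5.

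Downstream of the mitochondria, 6 of 18 genes of the apoptosome, the caspases and their inhibitors were called higher and 8 lower (median -0.08). Of all genes, 30.1% were called higher and 31.4% lower. Xiap, an inhibitor of caspases, fell to 82.7 ± 3.19 CPM in BRD0705/PD03, against 168 ± 4.74 CPM in 2i (-1.02 ± 0.04), and Aifm1, a mitochondrial flavoprotein, to 53.1 ± 2.40 CPM in BRD0705/PD03, against 132 ± 1.52 CPM in 2i (-1.31 ± 0.04). Htra2, a mitochondrial protease that counters such inhibitors, changed by -0.59 ± 0.07. Xiap and Aifm1 lie on chromosome X, where 473 of 717 genes tested were called lower and 106 higher, with a median log2 fold change of -0.78.

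Of 8 genes of the death receptor route, which joins the mitochondrial one at Bid, 2 were called higher and 3 lower (median -0.21), beside 30.1% and 31.4% of all genes. The receptor gene Tnfrsf10b stood at 24.4 ± 1.18 CPM in BRD0705/PD03 and 43.7 ± 1.06 CPM in 2i. The receptor gene Fas went the other way, at 6.95 ± 1.67 CPM in BRD0705/PD03 and 2.83 ± 0.703 CPM in 2i (1.26 ± 0.24). The adaptor gene Tradd stood at 2.81 ± 0.366 CPM in BRD0705/PD03 and 6.04 ± 0.639 CPM in 2i. Casp8, whose protein cuts BID, fell to 2.57 ± 0.616 CPM in BRD0705/PD03, against 4.20 ± 0.449 CPM in 2i (-0.72 ± 0.17), and Cflar, a decoy that blocks caspase 8, rose to 29.5 ± 2.23 CPM in BRD0705/PD03, against 20.6 ± 0.433 CPM in 2i (0.52 ± 0.06).

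Among 10 genes for transcription factors and regulators known to act on BH3-only genes, 7 were called higher and 2 lower (median 0.22), beside 30.1% higher and 31.4% lower of all genes. Foxo1, a forkhead factor that acts on Bcl2l11 and Bbc3, rose to 19.8 ± 0.931 CPM in BRD0705/PD03, against 8.06 ± 0.172 CPM in 2i (1.29 ± 0.08). E2f1 changed by 0.43 ± 0.06 and Trp53, which encodes p53, by 0.27 ± 0.05. Mdm2, which encodes the ligase that degrades p53 and is itself a p53 target, changed by -0.24 ± 0.04.

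Of 13 genes for kinases, ligases and partners that act on the MCL1 and BIM proteins, 4 were called higher and 7 lower (median -0.17), beside the same shares of 30.1% and 31.4% of all genes. Usp9x, a deubiquitinase that stabilises MCL1, fell to 1379 ± 68.7 CPM in BRD0705/PD03, against 2834 ± 85.9 CPM in 2i (-1.04 ± 0.05), and Huwe1, a ligase that marks MCL1 for breakdown, to 797 ± 25.1 CPM in BRD0705/PD03, against 1292 ± 53.1 CPM in 2i (-0.70 ± 0.04). Both lie on chromosome X, whose median is given above. Mapk3, which encodes ERK1, rose to 31.2 ± 2.79 CPM in BRD0705/PD03, against 13.2 ± 0.0921 CPM in 2i (1.24 ± 0.07), and Dynll2, the dynein light chain that binds BMF, fell to 23.9 ± 2.07 CPM in BRD0705/PD03, against 44.6 ± 2.33 CPM in 2i (-0.90 ± 0.06).

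**Figure D5:**
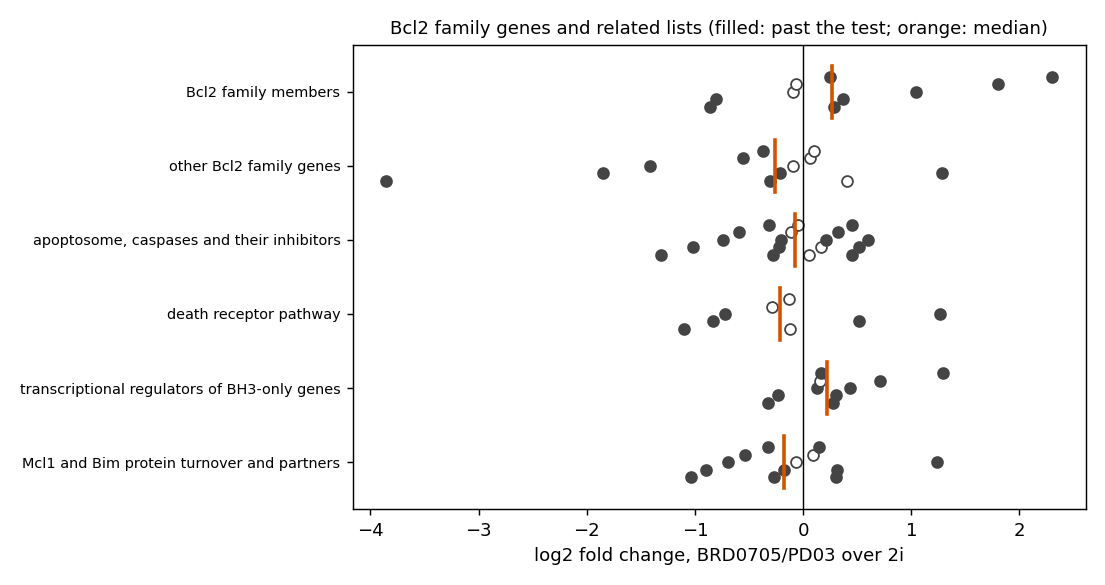
Log2 fold change of BRD0705/PD03 over 2i (x axis) for each tested gene of the Bcl2 family and of 5 related lists, filled where the gene passed the test, with the median of a list in orange. The median is 0.27 for the Bcl2 family members and -0.26 for the other family genes, and each list holds genes on both sides of 0.

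The 5 genes whose profile over the 6 libraries was nearest to that of Pmaip1 were Mctp2, Elmo1, Tpm1, Per3 and the pseudogene Rtraf-ps. Nearness was the root mean square distance of centred log2 CPM. It was taken among 10338 genes averaging 5 CPM or more, leaving out gene models without a name. The distances of the 5 genes were 0.0501 to 0.0736, beside a median of 1.15 over the genes compared. Their log2 fold changes lay between 2.21 and 2.52. Small distances and fold changes near that of Pmaip1 follow from how these genes were picked.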

How the data were processed

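Estimated counts per gene symbol, rounded to whole numbers and not scaled between libraries, were deposited by the authors. The submitters' processing notes name Salmon and mm10; version, annotation and strand setting are not stated. Groups came from sample titles. No 2 libraries of a group were alike within sampling noise (chi-square per degree of freedom 2.77 to 9.84 over genes with at least 20 counts).

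All genes were fitted with edgeR 4.0.16 in R 4.3.3 (filterByExpr, TMM, robust quasi-likelihood test, group only), with Benjamini-Hochberg adjustment over 20422 genes and a threshold of 0.05. Standard errors were derived from F, and intervals use the fit's degrees of freedom. Tests were two-sided and checked on simulated data. In that check 14% of 50 genes changed 1.2-fold were recovered, and 96% of 50 changed 1.5-fold. Coordinates and lengths came from GENCODE M21 on GRCm38, where 51951 symbols matched 1 gene, 104 several and 1872 none. Named genes were all members, up to 4 called genes per list with the smallest p, and the 5 profiles nearest to the most changed member. One such list gene is not reported here. Hrk, Bad, Bik, Bok and Fas are named in addition. Members and lists were chosen with earlier results of these data known. Alternatives were DESeq2 1.42.0, other scalings and filters, a test against a fold of 1.5, a replicate block, omission of X and Y genes or of each library, another gene length, and, added after seeing the data, thinning to 16968959 counts.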

Additional observations from a re-analysis of the deposited data

How the results depend on the processing

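The 8 called members kept their direction under all 15 alternative settings, and 5 of them, Pmaip1, Bcl2l11, Bmf, Bak1 and Bcl2, kept their call in all of them. Against a fold of 1.5 the log2 fold changes of Bbc3 (0.37), Bax (0.28) and Mcl1 (0.25) no longer passed, each at adjusted p = 1, so that 3 members were higher and 2 lower. That setting, built to call fewer genes, gave 2498 genes higher and 2596 lower. In the lists it left 1 other family gene higher and 3 lower, 0 apoptosome genes higher and 2 lower, and 1 death receptor gene higher and 2 lower. It also left 1 transcriptional regulator higher and 0 lower, and 1 turnover gene higher and 3 lower. Bid passed without 2i replicate 3 (-0.13, adjusted p = 0.0251), and Bcl2l1 stood at 0.013 without 2i replicate 2 (adjusted p = 0.881), beside -0.07 with all libraries. The causes were not tested. With one library left out, 6 members were higher and 2 to 3 lower, and 1 to 2 other family genes were higher and 4 to 8 lower, the 4 without 2i replicate 1. The log2 fold change of Bcl2 was then 1.59 to 1.97 and that of Bid -0.13 to -0.047, and that of Bcl2l1 -0.11 to 0.013. Other family genes numbered 4 lower by DESeq2, and 2 higher with upper-quartile factors or a mean of at least 1 CPM. With upper-quartile factors 6967 genes were higher and 5689 lower, and the median of all genes moved by 0.07. The 8 members without overlap were also 8 under both other scalings. With the longest protein-coding transcript, the summed levels in CPM per kilobase were 65.0 in BRD0705/PD03 and 42.5 in 2i for BH3-only members, 143 in BRD0705/PD03 and 127 in 2i for effectors, and 116 in BRD0705/PD03 and 99.6 in 2i for guardians, since the lengths are shorter. Deviations of same-numbered libraries from their group means correlated at -0.04, 0.07 and -0.05, and those of differently numbered libraries at -0.099 to 0.127. Since these ranges overlap, the check cannot tell whether the numbers pair the samples. With the replicate block 6 members were higher and 2 lower, and 6059 genes higher and 6376 lower. Depth limits Bcl2, with 8 to 80 counts a library. With thinning to equal totals its log2 fold change was 2.26, beside 1.81 without thinning. That of Bmf was then -0.61, beside -0.86. Both genes were still called.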
